A study of Arabidopsis thaliana with 6 samples.

Results

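The 60 genes described here encode UDP-glycosyltransferases (UGTs) of Arabidopsis thaliana, from the families UGT71 to UGT76, UGT78, UGT79, UGT84, UGT85 and UGT87. They were chosen by locus from a fixed list and make up 60 of the 26551 loci with usable values. RNA was sequenced from whole 6-day-old seedlings of the common wild-type accession Col-0, kept under long days in liquid culture on a shaker. The DMMTA group held 3 libraries from seedlings that had 15 µM of DMMTA in the medium for 6 h. DMMTA is dimethylmonothioarsenate, an organic arsenic species with an arsenic-bound sulfur in place of an oxygen. The control group held 3 libraries from seedlings of the same accession and age without DMMTA. The labels call the libraries of a group biological replicates and do not say whether each came from its own culture dish, so p-values measure the spread between these libraries.

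UGTs move a sugar, most often glucose, from a UDP-sugar onto an acceptor molecule. In plants the acceptors include hormones, flavonoids, phenylpropanoids, glucosinolate precursors and foreign compounds such as herbicides and explosives. The sugar makes the acceptor more soluble and commonly less active, and the product can be stored in the vacuole. One UGT often accepts many substrates in vitro, so the roles named below are the best known ones and need not be the only ones. Of the 60 genes, 6 are annotated only as UDP-glycosyltransferase superfamily proteins. They are called by locus, and their place in a family comes from the numbering of UGTs, not from the annotation.

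Levels are TPM, a transcript's share of its library scaled for gene length, computed from the deposited RPKM values. For 12 of the 60 genes the values of several coding sequences were summed, which would set their level too high against other genes if a read was counted for each of these sequences. Log2 fold changes, defined below, shift somewhat with this. With the mean of the sequences in place of their sum, that of UGT73B4 was 3.56 against 3.73, and that of UGT84A1 was 4.10 against 3.91. Values are given for the libraries of a group in replicate order. A fold is the ratio of the mean TPM of DMMTA to that of control. A log2 fold change is the difference of mean log2(TPM + 0.5), DMMTA minus control, with its standard error, and it understates the change of low genes. Adjusted p-values come from limma, adjusted by Benjamini-Hochberg across the 18813 loci that reached 1 TPM in 3 or more libraries, and a gene is called higher or lower at an adjusted p under 0.05. Estimated depth was 66100000 to 110000000 reads in the DMMTA libraries and 72400000 to 134000000 reads in the control libraries. Of 6 root markers, 4 were lower in DMMTA (EXPA7, COBL9, CASP1 and AGP31), and PYK10 and SCR were not called. The summed level of the 6 was 2011 to 2578 TPM in DMMTA against 2305 to 3150 TPM in control, with overlapping groups. PYK10, by far the most abundant, had a log2 fold change of -0.02. Without PYK10 the sum was 106 to 115 TPM in DMMTA against 243 to 337 TPM in control. Of 6 leaf markers, 1 was higher and 1 lower, with sums of 22696 to 26551 TPM in DMMTA against 25732 to 29393 TPM in control. None of the 5 flower and seed markers was tested, and their sums were 0.487 to 2.13 TPM in DMMTA and 0.230 to 5.30 TPM in control. The part of these markers in the UGT results was not tested, and in RNA of whole seedlings fewer cells of a type and less RNA per cell cannot be told apart.

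After 6 h of DMMTA, 31 of the 53 UGT genes that could be tested were higher, 6 were lower and 16 were not called. The higher share was 58.5%, where 17.4% of all loci tested were called higher. The lower share was 11.3%, near the 10.5% of all loci tested that were called lower. At a log2 fold change of at least 1, 20 genes were higher, where 6.19% of all loci were, and 1 gene was lower, where 3.24% of all loci were. The median log2 fold change was 0.66, against 0.04 over all loci tested. All DMMTA libraries lay above all control libraries in 32 genes (27.8% of all loci tested) and below them in 7 genes (18.6% of all loci tested), and the groups overlapped in 14 genes.

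The filter on low values shaped these counts. UGT84A1, UGT73C7 and AT2G36770 reached 1 TPM in the DMMTA libraries and in no control library, so they could enter the test only by differing. Without them, 28 of 50 genes were higher (56.0%), 18 of them with a log2 fold change of at least 1. The median log2 fold change was then 0.57, and all DMMTA libraries lay above all control libraries in 29 genes. With no filter, all 60 genes entered, of which 33 were higher and 8 lower, where 13.3% and 8.50% of the 23845 loci then tested were called higher and lower. Leaving out replicate 3 of both groups, where depth was lowest, 22 of the 48 genes then tested were higher and 5 were lower, where 10.1% and 4.63% of all loci then tested were.

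**Figure D1:**
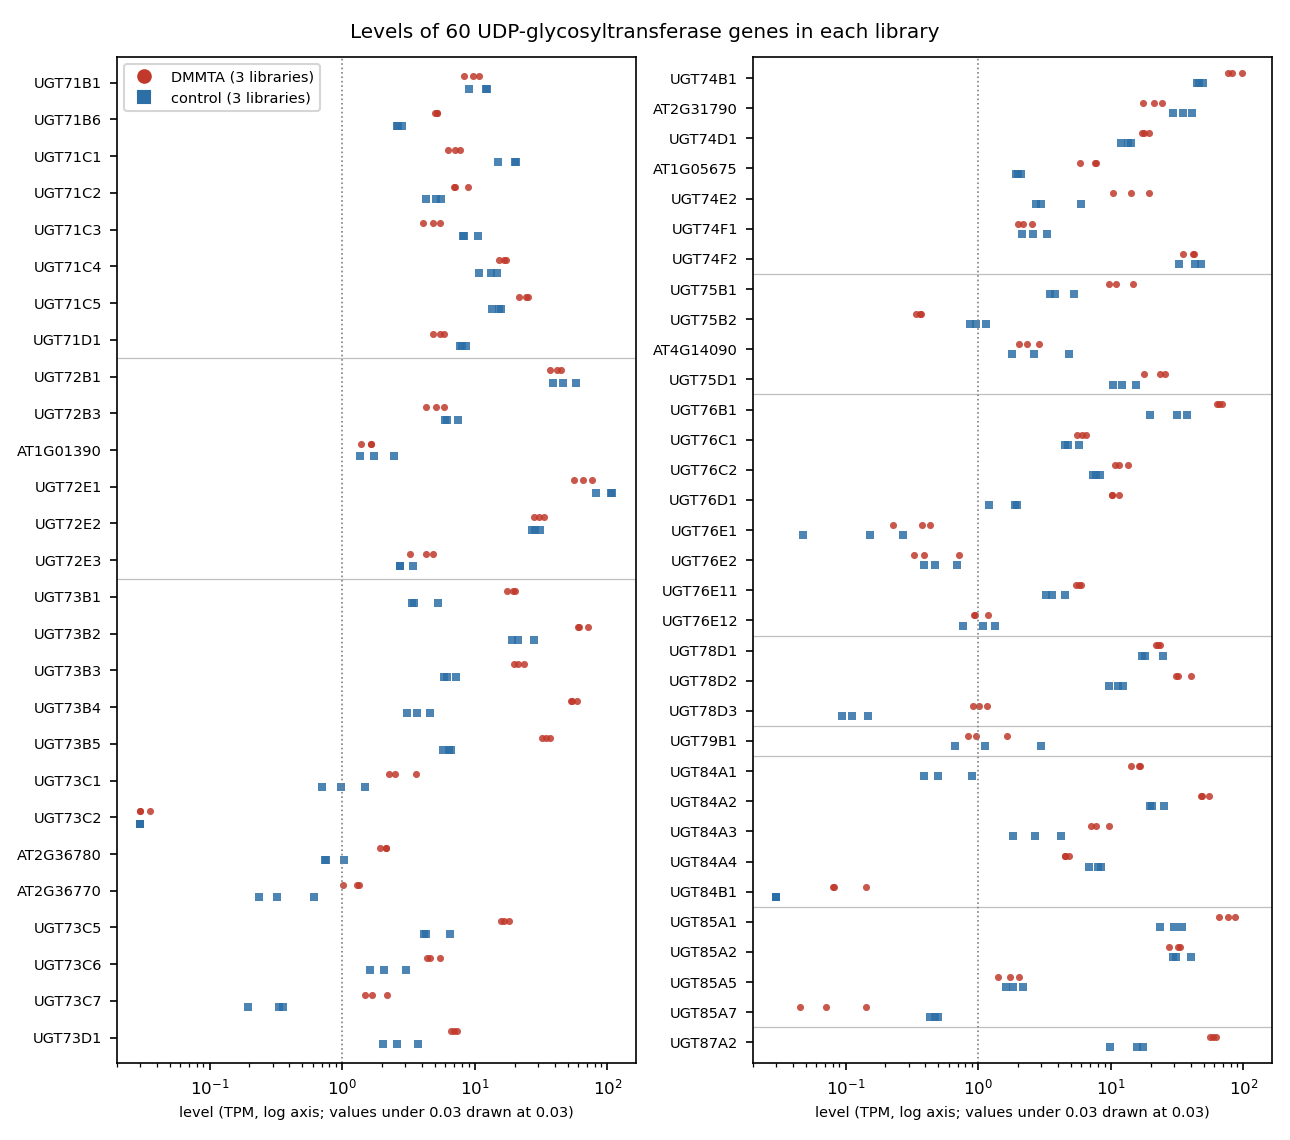
Level of each of the 60 UGT genes in each library, in TPM on a log axis, with DMMTA libraries as circles above control libraries as squares and grey lines between families. The UGT73 genes in the lower left show circles to the right of squares in 12 of 13 rows, and the levels of the most abundant gene, UGT72E1, are 55.6 to 76.0 TPM in DMMTA and 82.0 to 109 TPM in control.

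The UGT73 family, which holds several of the enzymes known for glucosylating foreign compounds, was higher throughout. All 12 tested genes of its 13 were called higher, 9 of them with a log2 fold change of at least 1, and the median log2 fold change was 1.51. Without UGT73C7 and AT2G36770, which entered only through DMMTA, it was 10 of 10. Of these, 8 had a log2 fold change of at least 1, and their median was 1.58. The summed level of the 13 genes was 231.6 ± 16.7 TPM in DMMTA and 55.8 ± 3.41 TPM in control (SD, n = 3 each), a 4.15-fold difference. The family made up 21.2% ± 0.894 of the TPM of the 60 genes in DMMTA and 8.22% ± 1.15 in control (SD, n = 3 each).

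Within UGT73B, UGT73B4 changed most. This enzyme glucosylates breakdown products of the explosive TNT. UGT73B4 had 54.2, 53.3 and 59.2 TPM in DMMTA, against 3.08, 4.56 and 3.69 TPM in control, a 14.7-fold difference (log2 fold change 3.73 ± 0.14, adjusted p = 3.86e-06). Its neighbour UGT73B5, known with UGT73B3 for a role in resistance to Pseudomonas and in the redox state of the cell, had 32.1, 34.5 and 37.2 TPM in DMMTA, against 6.61, 6.33 and 5.73 TPM in control (5.56-fold, log2 fold change 2.38 ± 0.11, adjusted p = 6.22e-06). In both genes the DMMTA libraries lay close together and far above every control library. UGT73B1, UGT73B2 and UGT73B3 stand side by side on chromosome 4. UGT73B1 had 19.5, 17.5 and 20.1 TPM in DMMTA, against 3.45, 3.37 and 5.32 TPM in control (4.70-fold, log2 fold change 2.13 ± 0.17, adjusted p = 6.35e-05). UGT73B3 had 21.2, 19.8 and 23.4 TPM in DMMTA, against 6.15, 7.18 and 5.83 TPM in control (3.36-fold, log2 fold change 1.67 ± 0.12, adjusted p = 4.12e-05). UGT73B2, a flavonol glucosyltransferase, was the most abundant of the 5 in both groups, with 60.3, 61.4 and 71.6 TPM in DMMTA, against 28.0, 19.2 and 21.1 TPM in control (2.83-fold, log2 fold change 1.49 ± 0.15, adjusted p = 1.72e-04). It had the smallest log2 fold change of the 5 UGT73B genes. Close relatives in such gene rows can share reads, so how the signal divides among them is uncertain.

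UGT73C genes were less abundant. UGT73C5, which glucosylates brassinosteroids and the Fusarium toxin deoxynivalenol, had 15.7, 16.7 and 18.1 TPM in DMMTA, against 4.27, 4.16 and 6.48 TPM in control (3.38-fold, log2 fold change 1.69 ± 0.17, adjusted p = 1.98e-04). Its neighbour UGT73C6, which also acts on brassinosteroids and on flavonol glycosides, had 4.60, 4.32 and 5.46 TPM in DMMTA, against 2.06, 1.62 and 3.00 TPM in control (2.15-fold, log2 fold change 0.98 ± 0.20, adjusted p = 0.00751). Groups did not overlap in either gene, and UGT73C5 stayed the more abundant of the 2 in every library. UGT73C1, which like UGT73B4 acts on TNT breakdown products, had 2.49, 2.26 and 3.62 TPM in DMMTA, against 0.708, 1.5 and 0.975 TPM in control (2.63-fold, log2 fold change 1.09 ± 0.23, adjusted p = 0.00931). DMMTA replicate 3 was its highest library, and without both replicate 3 libraries limma no longer called it (log2 fold change 0.89, adjusted p = 0.0963). UGT73C7, which glucosylates phenolic acids, was low, with 1.69, 1.5 and 2.17 TPM in DMMTA, against 0.196, 0.357 and 0.333 TPM in control (6.05-fold). AT2G36780 and AT2G36770, which stand in the same row on chromosome 2 as UGT73C1, UGT73C5 and UGT73C6, were called higher with log2 fold changes of 0.94 and 0.96. UGT73C2, in that row too, had 0, 0.0357 and 0 TPM in DMMTA and 0, 0.0174 and 0 TPM in control, and was not tested. UGT73D1, the neighbour of UGT73C7 on chromosome 3, had 7.01, 7.38 and 6.56 TPM in DMMTA, against 3.74, 2.58 and 2.04 TPM in control (2.51-fold, log2 fold change 1.22 ± 0.19, adjusted p = 0.00199).

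**Figure D2:**
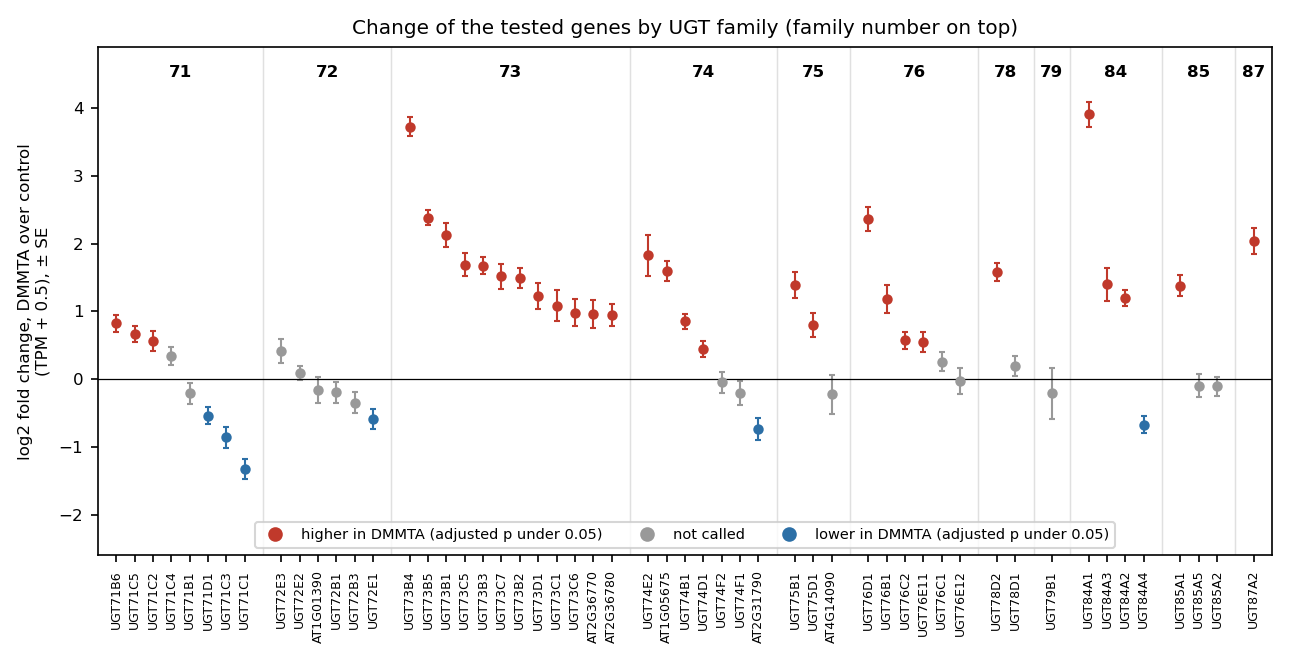
Log2 fold change of DMMTA over control for the 53 tested UGT genes, by family and in falling order within it, with bars of 1 standard error from limma. Every UGT73 gene tested lies at 0.94 or above, UGT72 genes lie between -0.59 and 0.41, and UGT71 runs from 0.82 to -1.33.

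The family UGT84 held the largest log2 fold change of the 60 genes, that of UGT84A1, but this rank depends on the 0.5 TPM added to each level. With a pseudocount of 2 in its place, UGT84A1 had 2.77 and UGT73B4 had 3.32. UGT84A1, UGT84A2, UGT84A3 and UGT84A4 make glucose esters of hydroxycinnamic acids such as sinapate, activated intermediates of the phenylpropanoid route. UGT84A1 had 16.3, 16.5 and 14.1 TPM in DMMTA, against 0.495, 0.392 and 0.896 TPM in control (26.3-fold, log2 fold change 3.91 ± 0.19), and as given above it entered the test only by differing. UGT84A2, the main sinapate glucosyltransferase, had 54.6, 47.8 and 49.0 TPM in DMMTA, against 19.8, 25.0 and 20.6 TPM in control (2.32-fold, log2 fold change 1.20 ± 0.12, adjusted p = 1.64e-04). UGT84A3 had 7.12, 7.73 and 9.63 TPM in DMMTA, against 1.83, 4.18 and 2.69 TPM in control (2.82-fold, log2 fold change 1.40 ± 0.25, adjusted p = 0.00358). Its call was lost without both replicate 3 libraries (log2 fold change 1.26, adjusted p = 0.0624, limma). UGT84A4 moved the other way, with 4.48, 4.54 and 4.87 TPM in DMMTA, against 8.36, 7.94 and 6.83 TPM in control (log2 fold change -0.67 ± 0.13, adjusted p = 0.00513). UGT84A1, UGT84A3 and UGT84A4 lie side by side on chromosome 4, so the lower gene stands next to the higher ones. The groups did not overlap in any of the 4 UGT84A genes. Over all loci tested, all DMMTA libraries lay above all control libraries in 27.8% and below them in 18.6%. UGT84B1, an auxin glucosyltransferase, had 0.0814, 0.143 and 0.0798 TPM in DMMTA and was listed at 0 in the 3 control libraries. It was too low for the test, and with no filter its log2 fold change was 0.26 (adjusted p = 0.0253, limma).

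Among UGTs that act on defence compounds, UGT76D1 and UGT76B1 were higher. UGT76D1, which glucosylates dihydroxybenzoic acids made from salicylate, had 10.2, 10.2 and 11.5 TPM in DMMTA, against 1.96, 1.91 and 1.21 TPM in control (6.28-fold, log2 fold change 2.36 ± 0.17, adjusted p = 3.58e-05). UGT76B1, which glucosylates salicylate, N-hydroxypipecolate and isoleucic acid, had 69.4, 63.0 and 64.9 TPM in DMMTA, against 37.8, 31.5 and 19.6 TPM in control (2.22-fold, log2 fold change 1.19 ± 0.21, adjusted p = 0.00358). Control replicate 3 was the lowest of the UGT76B1 values, and every DMMTA library lay above every control library in both genes. The salicylate glucosyltransferases UGT74F1 and UGT74F2 were not called. UGT74F2 had 35.1, 42.1 and 41.5 TPM in DMMTA and 48.1, 43.1 and 32.7 TPM in control, and UGT74F1 had 1.99, 2.53 and 2.18 TPM in DMMTA and 2.58, 3.29 and 2.16 TPM in control. The groups overlapped in both.

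Groups of genes by substrate hold 2 to 10 genes each and were chosen with earlier results of these data known. Their counts stand beside 17.4% of all loci tested called higher and 10.5% called lower. Genes for hormone glucosylation were called higher in several hormone groups. Of 3 genes for abscisic acid, the hormone of water stress, 3 were higher. UGT75B1 had 11, 9.71 and 14.8 TPM in DMMTA, against 3.51, 3.80 and 5.31 TPM in control (2.81-fold, log2 fold change 1.39 ± 0.20, adjusted p = 0.00116), and UGT71B6 and UGT71C5 had log2 fold changes of 0.82 and 0.66. Of the 3 auxin genes tested, 3 were higher. UGT74E2, which glucosylates the auxin precursor indole-3-butyrate, had 14.3, 19.3 and 10.4 TPM in DMMTA, against 2.95, 5.97 and 2.71 TPM in control (3.78-fold, log2 fold change 1.82 ± 0.30, adjusted p = 0.00251). It had the largest standard error of the genes called, and replicate 2 was the highest library of each group. The neighbouring AT1G05675 had 7.65, 5.87 and 7.78 TPM in DMMTA, against 1.93, 1.98 and 2.1 TPM in control (3.54-fold, log2 fold change 1.59 ± 0.15, adjusted p = 1.33e-04). The other auxin genes, UGT75D1 and UGT74D1, had log2 fold changes of 0.80 and 0.44. The UGT75D1 call was lost without DMMTA replicate 3 (log2 fold change 0.69, adjusted p = 0.0536, limma) and without both replicate 3 libraries (0.56, adjusted p = 0.110, limma). The UGT74D1 call was lost without control replicate 1 and without DMMTA replicate 2 or 3, with log2 fold changes of 0.37 to 0.45 and adjusted p between 0.0654 and 0.0855 by limma, and without both replicate 3 libraries (0.51, adjusted p = 0.0566, limma). Both brassinosteroid genes tested, UGT73C5 and UGT73C6, were higher, as given above.

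Of 3 genes for cytokinins, hormones of cell division, 2 were higher. UGT85A1, which adds glucose to the oxygen of zeatin, had 86.1, 65.9 and 76.6 TPM in DMMTA, against 29.9, 34.1 and 23.5 TPM in control (2.61-fold, log2 fold change 1.38 ± 0.15, adjusted p = 3.25e-04). UGT76C2, an N-glucosyltransferase of cytokinins, had 11.6, 10.7 and 13.4 TPM in DMMTA, against 7.39, 7.79 and 8.28 TPM in control (log2 fold change 0.57 ± 0.12, adjusted p = 0.0101). Without DMMTA replicate 3 its log2 fold change was 0.48 and its adjusted p 0.0535 by limma. Its neighbour UGT76C1, of the same function, had 6.54, 6.03 and 5.57 TPM in DMMTA and 4.74, 5.76 and 4.5 TPM in control, with overlapping groups, and was not called (log2 fold change 0.25). UGT87A2, known for a role in flowering time, had 58.6, 55.9 and 62.1 TPM in DMMTA, against 15.6, 17.6 and 9.91 TPM in control (4.09-fold, log2 fold change 2.03 ± 0.19, adjusted p = 1.35e-04).

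In the flavonoid group, 3 of 6 tested genes were higher (50.0%, where 17.4% of all loci tested were) and 3 were not called. UGT78D2, which adds glucose to flavonols and anthocyanidins, had 40.1, 31.9 and 30.9 TPM in DMMTA, against 9.72, 12.4 and 11.3 TPM in control (3.08-fold, log2 fold change 1.58 ± 0.14, adjusted p = 9.50e-05). The flavonol rhamnosyltransferase UGT78D1 had 22.6, 23.4 and 22.1 TPM in DMMTA and 18.0, 24.9 and 17.3 TPM in control, with overlapping groups (log2 fold change 0.19). UGT78D3, a flavonol arabinosyltransferase, had 1.16, 1.01 and 0.922 TPM in DMMTA against 0.0938, 0.148 and 0.111 TPM in control. These groups stood apart, but the gene did not pass the filter, and with no filter limma called it higher (log2 fold change 1.31, adjusted p = 2.18e-04). The other higher genes of this group were UGT73B2 and UGT73C6. AT4G14090, annotated as an anthocyanidin 5-O-glucosyltransferase, had 2.87, 2.01 and 2.35 TPM in DMMTA and 1.79, 4.86 and 2.64 TPM in control. UGT79B1, which decorates anthocyanins with xylose, had 1.66, 0.963 and 0.842 TPM in DMMTA and 0.674, 2.97 and 1.12 TPM in control. In both anthocyanin genes control replicate 2 was the highest library and control replicate 1 the lowest, so the control range held every DMMTA value.

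**Figure D3:**
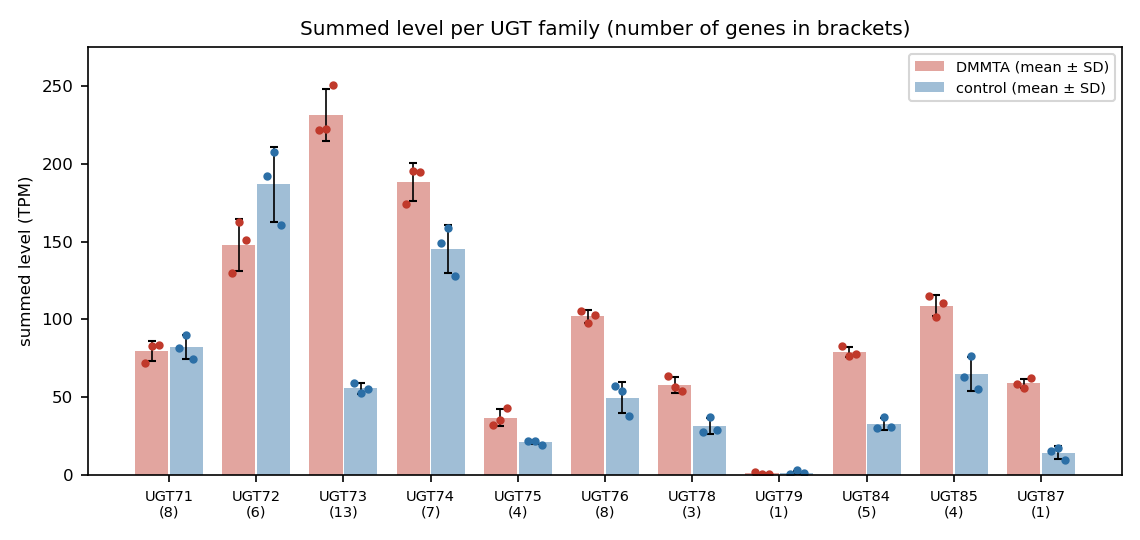
Summed level of the listed genes of each UGT family in TPM. Bars show the mean with SD over 3 DMMTA libraries (red, left) and 3 control libraries (blue, right), with a point per library. UGT73 shows the largest gap, 231.6 against 55.8 TPM, while UGT71 sums to 79.5 TPM in DMMTA and 82.2 TPM in control.

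The sum over the 60 genes was 1092 ± 37.4 TPM in DMMTA and 686 ± 77.8 TPM in control (SD, n = 3 each), a 1.59-fold difference. Sums by family cover only the genes listed here and need not stand for whole families. UGT71B5, UGT71B8, UGT84B2, UGT85A3 and UGT85A4, for example, are outside them. The sum in DMMTA was 4.09-fold that in control for the single listed UGT87 gene and 2.40-fold for UGT84. It was 2.05-fold for UGT76, 1.85-fold for UGT78, 1.76-fold for UGT75, 1.68-fold for UGT85 and 1.3-fold for UGT74. It was 0.968-fold for UGT71, 0.791-fold for UGT72 and 0.729-fold for the single listed UGT79 gene, whose libraries overlapped. In the control libraries UGT72 made up the largest share of the TPM of the 60 genes, 27.2% ± 0.493, against 13.5% ± 1.36 in the DMMTA libraries (SD, n = 3 each). UGT73 held the largest share in DMMTA, but with the mean over coding sequences in place of their sum UGT74 did (245 TPM, against 199 TPM for UGT73). The UGT73 sum was then 3.77-fold that in control.

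Of the 8 listed UGT71 genes 3 were higher and 3 lower (37.5% each). Of the 6 listed UGT72 genes none was higher and 1 was lower (16.7%). Over all loci tested, 17.4% were called higher and 10.5% lower, and in families this small 1 gene moves these shares far. UGT71C1, which acts on phenolic acids and foreign compounds in vitro, was the 1 gene lower with a log2 fold change under -1. It had 6.25, 7.08 and 7.77 TPM in DMMTA, against 20.0, 20.5 and 15.1 TPM in control (log2 fold change -1.33 ± 0.15, adjusted p = 3.46e-04). Its neighbour UGT71C2 moved the other way, with 7.12, 8.82 and 6.97 TPM in DMMTA, against 5.58, 5.10 and 4.31 TPM in control (log2 fold change 0.57 ± 0.15, adjusted p = 0.0228). The groups of UGT71C1 and of UGT71C2 did not overlap, but the UGT71C2 call was lost without control replicate 3 (log2 fold change 0.47, adjusted p = 0.0530), without DMMTA replicate 2 (0.46, adjusted p = 0.0924) and without both replicate 3 libraries (0.53, adjusted p = 0.0867), all by limma. UGT71C3 and UGT71D1 were lower, with log2 fold changes of -0.86 and -0.54, and UGT71C4 and UGT71B1 were not called. UGT71C5, UGT71C4 and UGT71C3 lie side by side on chromosome 1, and their log2 fold changes were 0.66, 0.34 and -0.86. The sum over the 8 UGT71 genes thus held genes that moved in opposite directions.

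UGT72 genes act on lignin building blocks and on chlorinated phenols and anilines. Of the 3 monolignol genes 1 was lower and none was higher. UGT72E1, which glucosylates the aldehyde precursors of monolignols and was the most abundant of the 60 genes on average, had 55.6, 76.0 and 64.9 TPM in DMMTA, against 109, 106 and 82.0 TPM in control (log2 fold change -0.59 ± 0.15, adjusted p = 0.0186). Leaving out control replicate 1 or 2 ended the call (log2 fold change -0.52 and -0.54, limma adjusted p = 0.0564 and 0.0503), as did leaving out DMMTA replicate 1 or 3 (log2 fold change -0.48 and -0.59, limma adjusted p = 0.0661 and 0.0634). UGT72E2, the main coniferyl alcohol glucosyltransferase, had 28.2, 30.6 and 33.0 TPM in DMMTA and 26.9, 31.0 and 28.5 TPM in control. UGT72E3, which acts on sinapyl and coniferyl alcohol, had 3.22, 4.28 and 4.87 TPM in DMMTA and 2.71, 3.44 and 2.72 TPM in control. Neither was called, and the groups overlapped in both. UGT72B1, which detoxifies chlorinated phenols and anilines, had 36.6, 44.4 and 42.0 TPM in DMMTA and 46.1, 57.9 and 38.6 TPM in control, with overlapping groups (log2 fold change -0.20, adjusted p = 0.367, limma). UGT72B3 and AT1G01390 were not called.

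Of 10 genes listed for foreign compounds, 8 were higher (80.0%, where 17.4% of all loci tested were), 1 was lower (UGT71C1) and 1 was not called (UGT72B1), with a median log2 fold change of 1.68. The 8 higher ones were the 5 UGT73B genes, UGT73C1, UGT73C5 and UGT74E2. All of these but UGT74E2 are UGT73 genes given above, so this count largely repeats that result. The list was chosen with earlier results of these data known, so the count is no separate support.

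In UGT74, UGT74B1 attaches the glucose of the glucosinolate core and was the second most abundant of the 60 genes. It had 76.8, 82.1 and 97.4 TPM in DMMTA, against 46.5, 49.6 and 44.7 TPM in control (1.82-fold, log2 fold change 0.85 ± 0.11, adjusted p = 7.13e-04), with groups that did not overlap. AT2G31790, which stands with UGT74B1 in the hand-written glucosinolate list but is given no role by the annotation, had 21.2, 24.4 and 17.4 TPM in DMMTA, against 34.9, 41.3 and 29.4 TPM in control (log2 fold change -0.73 ± 0.16, adjusted p = 0.0102). It was the 1 lower gene of its family, and of the 2 genes of that list 1 was thus higher and 1 lower.

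Of the remaining genes, UGT76E11 was called higher with a log2 fold change of 0.54, and the call was lost without any single DMMTA library, without control replicate 1 or 3 and without both replicate 3 libraries, with log2 fold changes of 0.45 to 0.57 and adjusted p between 0.0567 and 0.140 by limma. UGT85A2 had 27.5, 33.2 and 32.0 TPM in DMMTA and 30.8, 40.2 and 29.4 TPM in control and was not called, nor were UGT85A5 and UGT76E12. UGT85A7, the neighbour of UGT85A2, was low, with 0.0452, 0.143 and 0.0709 TPM in DMMTA against 0.469, 0.496 and 0.436 TPM in control. UGT75B2 had 0.371, 0.365 and 0.337 TPM in DMMTA against 0.955, 0.861 and 1.15 TPM in control. Neither passed the filter, both had groups that stood apart, and with no filter limma called both lower, with adjusted p = 0.00145 for UGT85A7 and 0.00215 for UGT75B2. UGT76E1 and UGT76E2 were not tested and not called with no filter (adjusted p = 0.125 and 0.811, limma). The 16 genes not called had log2 fold changes of -0.35 to 0.41 and adjusted p of 0.0922 to 0.928 by limma, which does not show that they were equal in the groups.

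The ratio of related genes within a library compares close relatives directly, and scaling enters it only through the 0.5 TPM added to each level. Of 17 pairs listed, 14 had both genes tested, and in 9 of them the ratios of the DMMTA libraries stood apart from those of the control libraries. The 9 include UGT84A2 with UGT84A1, a pair that entered only because UGT84A1 reached 1 TPM in the DMMTA libraries. No share over other gene pairs is given beside this count. With 3 libraries a group the exact two-sided permutation test cannot give a p below 0.1, so none can pass 0.05, and the smallest p adjusted over the 14 pairs was 0.156. UGT84A2 exceeded UGT84A1 by a log2 ratio of 1.66 ± 0.14 in DMMTA and 4.37 ± 0.46 in control (SD, n = 3 each, here and for the ratios that follow). UGT71C1 and UGT71C2 were near parity in DMMTA, with a log2 ratio of -0.11 ± 0.23, against 1.78 ± 0.11 in control. UGT73B4 exceeded UGT73B5 in every DMMTA library (log2 ratio 0.68 ± 0.06) and was below it in every control library (-0.67 ± 0.29). With the mean over coding sequences, of which UGT73B4 has 3 and UGT73B5 2, these ratios were 0.10 ± 0.06 and -1.11 ± 0.26, still above 0 in every DMMTA library and below it in every control library. UGT78D2 and UGT78D1, with 1 coding sequence each, had a log2 ratio of 0.58 ± 0.21 in DMMTA and -0.81 ± 0.20 in control, also on opposite sides of 0 in every library. For UGT85A1 over UGT85A2 the ratio was 1.29 ± 0.33 in DMMTA and -0.20 ± 0.14 in control, but with the mean over the 2 coding sequences of UGT85A2 it was 2.27 ± 0.33 in DMMTA and 0.79 ± 0.14 in control. Which of these 2 genes was the more abundant in control thus depends on the summing, and the difference between the groups does not. The pairs UGT73B3 with UGT73B2, UGT74E2 with AT1G05675, UGT74F2 with UGT74F1, UGT72B1 with UGT72B3 and UGT76C2 with UGT76C1 kept overlapping ratios.

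**Figure D4:**
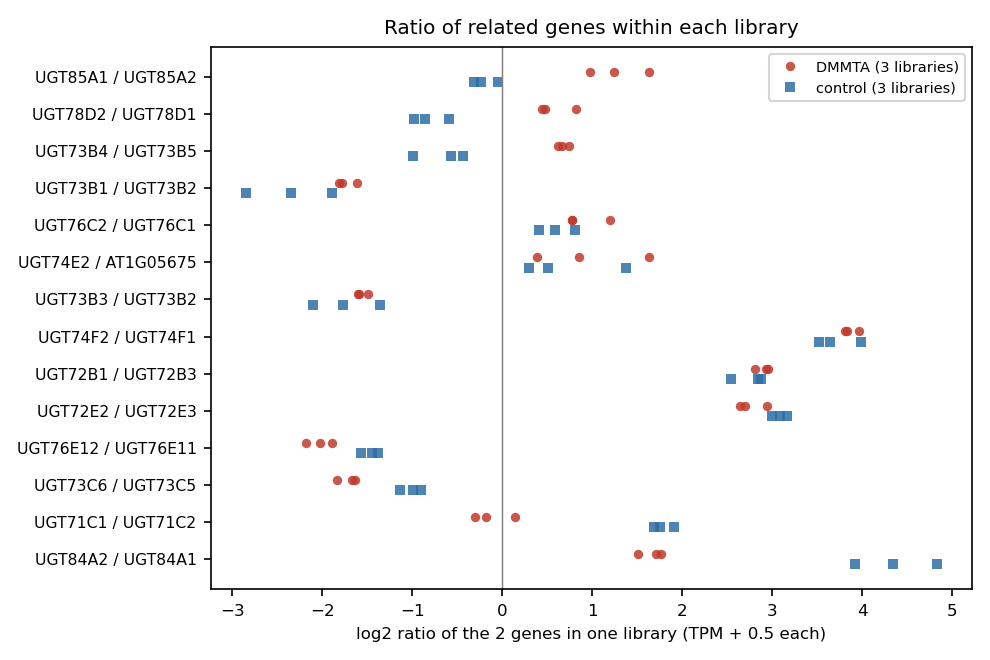
Log2 ratio of the first to the second gene of 14 related pairs in each library, computed on TPM + 0.5, with DMMTA libraries as circles above control libraries as squares. UGT84A2 / UGT84A1 at the bottom lies at 1.51 to 1.76 in DMMTA and 3.92 to 4.84 in control, and UGT85A1 / UGT85A2 at the top lies at 0.98 to 1.63 in DMMTA and -0.31 to -0.04 in control.

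The genes share features that did not enter their choice. Of the 60, 32 lie next to another gene of the list in the annotation, in 12 runs, and 48 have a single coding sequence. Genes of a run did not all move together. The 3 UGT73B genes of chromosome 4, the neighbours UGT73B5 and UGT73B4, and AT1G05675 and UGT74E2 were higher in both or all genes. So were all tested genes of the UGT73C row on chromosome 2, and UGT73D1 with UGT73C7. Of these, AT2G36770 and UGT73C7 entered the test only through DMMTA. The runs of UGT84A1, UGT84A3 and UGT84A4, of UGT71C5, UGT71C4 and UGT71C3, and of UGT71C2 and UGT71C1 each held genes called in opposite directions.

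Genes around the UGT reaction were read from 3 lists, also chosen with earlier results of these data known. Of 13 tested genes for the supply of UDP-sugars, the sugar donors, 3 were higher and 2 lower (23.1% and 15.4%), near the 17.4% and 10.5% of all loci tested and so no result about the list. The sucrose synthase SUS3, which makes UDP-glucose from sucrose, had the largest change, with 4.83, 3.64 and 3.85 TPM in DMMTA, against 1.25, 1.58 and 1.09 TPM in control (log2 fold change 1.35 ± 0.17, adjusted p = 6.24e-04). The lower gene with the larger change was its relative SUS5, with 1.81 ± 0.0649 TPM in DMMTA and 2.74 ± 0.391 TPM in control (SD, n = 3 each, log2 fold change -0.48, limma adjusted p = 0.0429). UGP1, a UDP-glucose pyrophosphorylase, had 248 ± 12.8 TPM in DMMTA and 230 ± 33.3 TPM in control (SD, n = 3 each) and was not called.

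Malonyltransferases can cap the added glucose and direct the conjugate to storage. Of the 3 on the list, PMAT1 and PMAT2 were higher (66.7%, where 17.4% of all loci tested were). PMAT1, which malonylates glucosides of phenolic foreign compounds, had 76.8, 70.6 and 81.3 TPM in DMMTA, against 23.7, 20.3 and 16.6 TPM in control (3.78-fold, log2 fold change 1.90 ± 0.14, adjusted p = 3.42e-05). PMAT2 had 1.93, 1.66 and 1.99 TPM in DMMTA, against 0.316, 0.513 and 0.563 TPM in control (4.01-fold). It reached 1 TPM in the DMMTA libraries and in no control library, so it could enter the test only by differing. The anthocyanin enzyme 5MAT was not called. Among 7 regulators of stress and detoxification genes, 3 were higher (42.9%, where 17.4% of all loci tested were) and none was lower (10.5% of all loci tested). The NAC transcription factor ANAC032 had 21.2, 20.9 and 20.4 TPM in DMMTA, against 4.57, 5.72 and 3.74 TPM in control (4.46-fold, log2 fold change 2.06 ± 0.15, adjusted p = 3.90e-05). ANAC102 and ANAC017 were higher too, with log2 fold changes of 1.62 and 0.37. TGA2, TGA5 and TGA6, bZIP factors of the salicylate and detoxification responses, and their partner SCL14 were not called, with log2 fold changes of 0.02 to 0.39.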

How the data were processed

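Strand-specific libraries were made from poly(A) RNA of whole seedlings, 3 per group, per the labels' protocols. Each library has 1 deposited table with RPKM and FPKM values per coding sequence, both computed by the authors, as per the file headers. DESeq2 is named in the submitters' processing notes, without version or role. The aligner, the way of counting, the build and any filter were not given in the sources used here.

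Of 48350 rows a table, 1884 (3.90%) with displaced or empty cells were left out, and 46466 rows of 26551 loci were used. RPKM was summed per locus and rescaled to 1000000 per library, called TPM here. Since the files give no counts, read depth was worked out from the spacing of low RPKM values, of which 88.6% to 95.0% lay within 0.2 read of a whole number. In the 1379 loci with 2 identical coding sequences the deposited values of both were equal, and 35 of their 54 low values came out as whole reads by that measure (64.8%), against 92.4% in loci with 1. Whether shared reads were divided or counted for each is not settled by this, so the mean over coding sequences was added as an alternative. More deeply sequenced libraries measure low genes more precisely, and replicate 3 of each group was the shallowest. Names and neighbours come from the annotation of TAIR10.1. The files do not name their build, so no coordinates or sequences are printed.

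A linear model was fitted in limma 3.58.1 (R 4.3.3), for loci that reached 1 TPM in 3 or more libraries, on log2(TPM + 0.5) with an intensity trend, no covariates, and Benjamini-Hochberg adjustment over 18813 loci, with a threshold of 0.05. The fit was tested on simulated data with an assumed spread between libraries. It recovered 6 of 50 genes with a 1.5-fold change, 37 of 50 with a 2-fold change and 50 of 50 with a 4-fold change. Of 152 calls, 9 were false. Small changes can thus go uncalled. Ratios of related genes were compared by exact permutation. The UGT genes, the substrate, pathway, marker and pair lists and the tests were chosen with earlier results of these data known. Values per library are given for UGT genes called with an absolute log2 fold change of at least 1, for the 5 most abundant and for both genes of the pairs described, and for some other genes chosen after their values were seen. Alternatives were no filter or a stricter one, the fit with some libraries left out or with the replicate as a block, pseudocounts of 0.1 and 2, median-of-ratios scaling and FPKM. Figures used matplotlib 3.10.9.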

Additional observations from a re-analysis of the deposited data

How the results depend on the processing

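The count of higher UGT genes was 22 to 33 and of lower ones 5 to 8 over 15 alternatives, within 1.5 times of 31 and 6. Leaving out 1 library gave 24 to 31 higher and 5 to 6 lower. A stricter filter of 5 TPM gave 25 higher and 6 lower of 40 tested, and median-of-ratios scaling 30 and 6. The mean over coding sequences in place of their sum, an alternative chosen after seeing the data, gave 32 and 7 of 55 tested. The labels do not say whether a replicate number marks a shared batch, and the main fit did not pair the samples by it. Same-numbered libraries deviated together with correlations of 0.24, 0.33 and 0.08 for replicates 1, 2 and 3, and each library correlated best with its own number. With the replicate block, 31 genes were higher and 6 lower, the same calls as without it, and over all loci 3539 were higher and 2242 lower, against 3273 and 1979. The UGT84A2 to UGT84A1 log2 ratio differed between the groups by -2.71, and by -3.35 with a pseudocount of 0.1 and -1.62 with a pseudocount of 2, since UGT84A1 was near 0.5 TPM in control. The UGT71C1 to UGT71C2 difference was -1.89, and -1.64 with a pseudocount of 2. For 3 genes that were not called the sign turned. UGT74F2 had a log2 fold change of 0.0685 without control replicate 1 (leave-one-out range -0.206 to 0.0685) and 0.0337 without DMMTA replicate 1, UGT85A2 had 0.0342 without control replicate 2 (range -0.190 to 0.0342), and UGT76E12 had 0.0149 without DMMTA replicate 1 and 0.00358 without DMMTA replicate 2 (range -0.17 to 0.0149). The cause was not tested. The UGT71D1 call was lost without both replicate 3 libraries (log2 fold change -0.59 against -0.54, adjusted p = 0.0579, limma). Precision is limited by 3 libraries a group and, for genes under about 1 TPM, by few reads.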

Other observations

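The files hold 68 further loci described as UDP-glycosyltransferases, of which 49 could be tested, 9 were higher and 6 were lower (18.4% and 12.2%), near the 17.4% and 10.5% of all loci tested. These loci were taken by symbol or by description alone, so they reach beyond the families above, as with UGT80B1, which was not called. The shares depend on which loci are counted. The count holds AT2G22590, which entered the test only through DMMTA, and AT1G64910 and AT1G64920, which entered it only through control. The loci named here were chosen after their values were seen. AT2G22590 had 5.39 ± 1.02 TPM in DMMTA and 0.094 ± 0.061 TPM in control (SD, n = 3 each), and no control library reached 1 TPM. AT5G53990 had 15.5 ± 2.1 TPM in DMMTA and 1.25 ± 0.479 TPM in control (SD, n = 3 each, 12.4-fold, log2 fold change 3.22, limma adjusted p = 2.33e-05). AT5G17040, which the annotation places between UGT78D3 and UGT78D2, had 5.63 ± 0.436 TPM in DMMTA and 1.14 ± 0.17 TPM in control (SD, n = 3 each, 4.95-fold). AT1G06000, annotated as a flavonol-7-O-rhamnosyltransferase, had 50.5 ± 7.04 TPM in DMMTA and 23.7 ± 5.82 TPM in control (SD, n = 3 each, 2.13-fold, limma adjusted p = 0.00210), and the UDP-rhamnose synthase RHM1 had 176 ± 11.5 TPM in DMMTA and 101 ± 15.0 TPM in control (SD, n = 3 each, log2 fold change 0.80, limma adjusted p = 0.00179). The lowest log2 fold changes among these loci were -1.45 in AT5G05900 and -1.28 in AT1G10400.

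The anthocyanin malonyltransferase 5MAT had 1.36, 0.749 and 0.922 TPM in DMMTA and 0.461, 2.02 and 1.02 TPM in control. As in AT4G14090 and UGT79B1, control replicate 2 was the highest library, control replicate 1 the lowest, and DMMTA replicate 1 the highest of its group.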
